A study of Homo sapiens with 24 samples.

Results

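The genes examined here were the nuclear genes for the mitochondrial respiratory chain and for the mitochondrial ribosome (mitoribosome), measured by 3′ RNA-seq in the bladder cancer cell lines RT112 and SCaBER. Members were chosen by name alone: NDUF names with A, B, C, S, V or AF and a number, SDHA to SDHD, and names starting with UQCR, COX4 to COX8, ATP5, MRPL or MRPS. The rule matched 269 gene names, and leaving out 95 pseudogene names gave 174 members of 58721 listed genes. They comprised 37 genes named as complex I subunits, 8 complex I assembly factors, 4 complex II, 9 complex III, 17 complex IV and 21 ATP synthase genes, 49 genes of the large mitoribosomal subunit and 29 of the small subunit. Of these, 163 passed the filter on low counts in both lines and were tested. The 11 untested members were NDUFA7, NDUFV2, MRPL38, MRPL53, MRPS18B, COX4I2, the readthrough ATP5MF-PTCD1, and COX6A2, COX7A1, COX7B2 and COX8C, for which no read was counted in any library.

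RT112 is a luminal papillary line grown in RPMI, and SCaBER a basal/squamous line grown in DMEM, both with serum. Every culture was transfected with siRNA in Lipofectamine RNAiMAX. The treatments were a control siRNA (siControl, siControl.2 in the labels), an siRNA against FOXA1 (siFOXA1, siFOXA1.1 in the labels), 2 siRNAs against ZBED2 used separately (siZBED2-1 and siZBED2-2), and siFOXA1 together with either ZBED2 siRNA. FOXA1 is a pioneer transcription factor of luminal urothelium and ZBED2 a zinc finger transcription factor. Each of the 12 groups held 2 libraries, numbered in the labels by experiment batch, and a knock-down here lowers a transcript without removing it. A single line stood for each tumour subtype.

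The respiratory chain passes electrons from NADH (complex I) and succinate (complex II) through complexes III and IV to oxygen, and the ATP synthase uses the proton gradient so formed. A few of its subunits are encoded by the mitochondrial genome and translated on mitoribosomes, whose proteins all come from the nucleus. The nuclear genes are expressed in nearly all cells, and NRF1, GABPA and other ETS factors, and YY1 are known regulators of many of their promoters.

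Total counts per library ran from 4425404 to 6119210 with a median of 4990881, and the members took 1.97 to 2.78% of them. Transcripts of the mitochondrial genome took 8.22 to 22.7%. FOXA1 fell in RT112 from 41.9 and 41.4 CPM (counts scaled by TMM to a common library total) in the control libraries to 6.87 and 9.57 under siFOXA1, and in SCaBER from 3.74 and 5.51 to 0.819 and 1.36. ZBED2 fell in RT112 from 22.1 and 16.9 CPM to 2.38 and 0 under siZBED2-1 and to 7.34 and 6.3 under siZBED2-2. In SCaBER ZBED2 went from 18.9 and 18.9 CPM to 2.41 and 7.39 under siZBED2-1, but to 8.74 and 15.8 under siZBED2-2, so that replicate 2 of the latter kept most of it. ZBED2 was also at 5.46 and 1.52 CPM in RT112 under siFOXA1 alone. SCaBER siZBED2-1 replicate 2, which received no FOXA1 siRNA, held 1 FOXA1 count (0.185 CPM), below both siFOXA1 libraries of that line. Summed luminal markers ran from 4940 to 6910 CPM in RT112 and from 1470 to 1990 in SCaBER, summed basal and squamous markers from 712 to 1350 and from 3370 to 6430. Of 14 markers of immune, endothelial and stromal cells 10 stayed under 3 CPM in every library, while COL1A1 was counted in all 24 libraries at up to 58.5 CPM.

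The first question was whether depletion of FOXA1 changed these genes. Single members rose and others fell within complex I, the ATP synthase and both mitoribosomal subunits in each line, with medians over all members close to those of all genes. Called members of complex III all rose, and those of complex II and the complex I assembly factors all fell. In RT112 17 members rose and 17 fell, with an adjusted p under 0.05 in edgeR's quasi-likelihood test, and in SCaBER 20 rose and 12 fell. Over all genes tested, 11.3% rose and 11.9% fell in RT112 and 8.71% rose and 9.12% fell in SCaBER. Members are highly expressed, and among tested genes of at least 20 CPM the shares were 18.4 and 17.7% in RT112, against 11.1 and 11.8% of the 144 members at that level. In SCaBER they were 14.7 and 14.2%, against 13.7 and 8.22% of 146 members. The median log2 fold change over the 163 members was 0.01 in RT112 and 0.06 in SCaBER, where the median over all genes was -0.01 and -0.02. The split depended on the scaling. Scaled by library size alone, 11 members rose and 23 fell in RT112 and 11 rose and 16 fell in SCaBER, and on the deposited TPM scale 2 rose and 23 fell in RT112 and 2 rose and 18 fell in SCaBER. These scalings moved the median of all genes, to -0.11 and -0.26 in RT112 and to -0.09 and -0.13 in SCaBER, and the members' median lay at 0.03 and -0.01 from it in RT112 and at 0.07 and 0.05 from it in SCaBER. In bulk RNA a change in level may come from the number of cells of a kind or from the RNA per cell, which cannot be told apart.

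**Figure D1:**
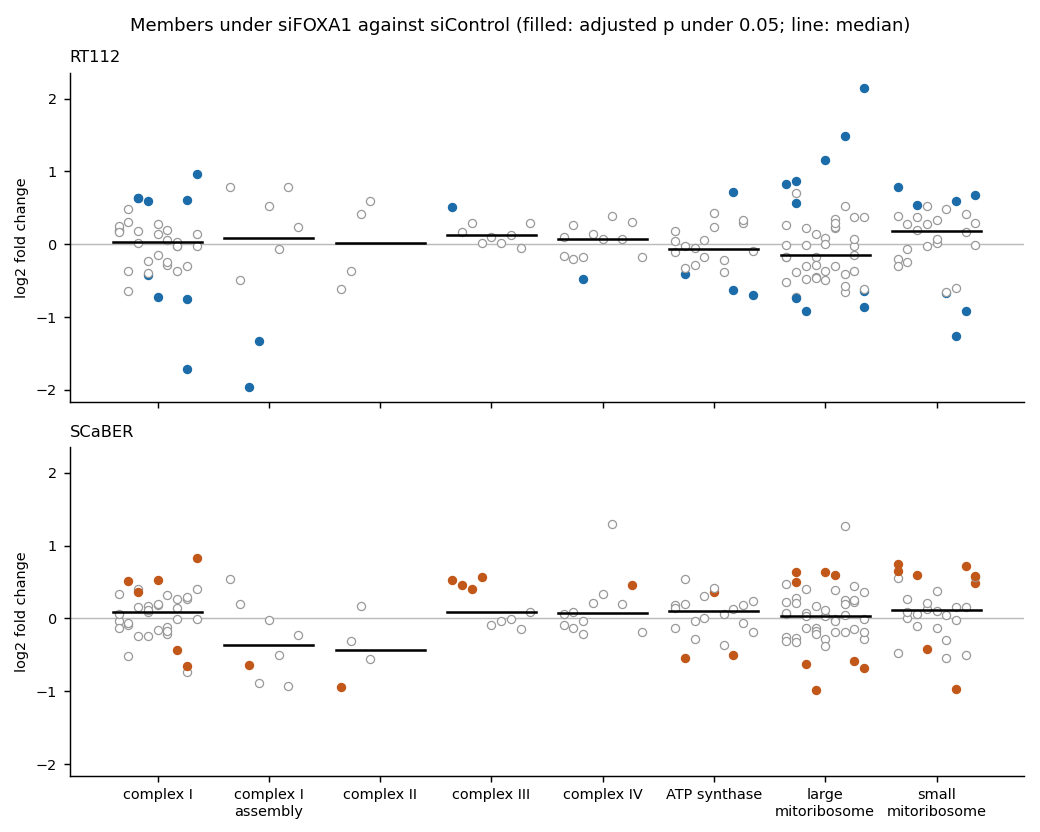
Log2 fold change of each of the 163 tested members under siFOXA1 against siControl, by complex and ribosomal subunit, in RT112 and SCaBER. Filled points passed an adjusted p of 0.05. Points lie on both sides of 0 in every group with more than a few members, and the medians over all members are 0.01 in RT112 and 0.06 in SCaBER.

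Within complex I, 5 of 35 tested members rose and 4 fell in RT112, and 4 rose and 2 fell in SCaBER. NDUFB9, an accessory subunit of the membrane arm, rose in SCaBER from 572.5 and 468.3 to 739.8 and 784.1 CPM (log2 0.53 ± 0.11, SE, n = 2 libraries per group, edgeR adjusted p = 5.31e-04), and its RT112 value of 0.28 missed the threshold (adjusted p = 0.103).

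NDUFB3, another accessory subunit of the membrane arm (chr2:201072001-201085750), had the lowest edgeR adjusted p among complex I members that fell in RT112, at 4.3e-05. Its RT112 control libraries held 77.1 and 101.6 CPM and its siFOXA1 libraries 25.7 and 29.6, a log2 fold change of -1.71 ± 0.27. In SCaBER its values overlapped, at 32.4 and 54 CPM in controls against 12.1 and 40.7 (log2 -0.73, adjusted p = 0.144). NDUFAF3, an assembly factor of the quinone-binding module, fell in RT112 from 22.7 and 33.1 to 10.5 and 3.92 CPM (log2 -1.96 ± 0.41, edgeR adjusted p = 9.47e-04). In SCaBER it fell from 47.15 and 51.79 to 32.96 and 31.45 CPM (log2 -0.64, adjusted p = 0.0476). No other complex I assembly factor fell in SCaBER, and in RT112 NDUFAF4 was the other that fell, among 8 tested in each line.

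NDUFA4 is named for complex I and is listed by RefSeq as COXFA4, a complex IV subunit (chr7:10931943-10940153). Its RT112 control libraries held 274.1 and 321.1 CPM against 179.6 and 178.9 under siFOXA1 (log2 -0.75 ± 0.15, edgeR adjusted p = 6.32e-04). In SCaBER the control libraries held 265.7 and 355.4 CPM against 335.3 and 418.6 (log2 0.26 ± 0.14, adjusted p = 0.221). The groups stood apart in RT112 and overlapped in SCaBER. A test of the difference between the lines in a fit of all 24 libraries gave 1.01 ± 0.22 log2 units (edgeR adjusted p = 0.00653). NDUFA4 was the 1 of 163 members called in that test, in which 1.41% of all genes were called higher in SCaBER and 1.17% lower. The call was lost on the TPM scale and without SCaBER siControl replicate 1, with an adjusted p of up to 0.0662 over the alternatives and a difference between 0.82 and 1.24.

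Of the 4 complex II genes SDHA alone was called, in SCaBER. SDHA, the flavoprotein that oxidises succinate, fell in SCaBER from 104.8 and 98.5 to 61.4 and 45.5 CPM (log2 -0.94 ± 0.19, edgeR adjusted p = 3.73e-04). In RT112 its values of 57.9 and 58 CPM in controls and 43.6 and 32.9 under siFOXA1 gave a log2 of -0.61 with an adjusted p of 0.0973. SDHB, the iron-sulfur subunit, had log2 values of -0.36 and -0.31, and the membrane anchors SDHC and SDHD had 0.41 and 0.59 in RT112 and 0.17 and -0.56 in SCaBER. None of these 6 values passed the threshold, and the adjusted p of SDHC in RT112 was 0.075, or 0.046 with a replicate block, a term for the replicate number in the fit.

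Complex III members lay mostly above 0. In RT112 8 of 9 did, of which 1 rose, and in SCaBER 5 of 9 did, of which 4 rose, while none fell in either line. With library size alone 5 of 9 stayed above 0 in RT112 and on the TPM scale 1 of 9. UQCR10, a small subunit, rose in both lines, from 229.1 and 249.3 to 318.4 and 370.3 CPM in RT112 (log2 0.51 ± 0.14, edgeR adjusted p = 0.00855) and from 114.1 and 124.5 to 167.4 and 179.9 in SCaBER (log2 0.52 ± 0.15, adjusted p = 0.0125). UQCRB rose in SCaBER from 599.2 and 648.3 to 780.3 and 888.7 CPM (log2 0.40, adjusted p = 0.00916), with 0.29 in RT112 (adjusted p = 0.108). UQCRFS1, the Rieske protein, was at 0.01 and -0.03. UQCRHL is a near copy of UQCRH, so that reads may be split between them and both values are uncertain.

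In complex IV 1 of 12 tested members was called in each line. COX8A fell in RT112 from 492.3 and 567.2 to 412.4 and 356.2 CPM (log2 -0.48, edgeR adjusted p = 0.0115), without a call in SCaBER (-0.21, adjusted p = 0.202). COX7A2 rose in SCaBER from 208 and 260.5 to 305 and 349.6 CPM (log2 0.46, adjusted p = 0.0202), with 0.31 in RT112 (adjusted p = 0.117). The broadly expressed isoform COX4I1 had log2 values of -0.17 and 0.06, and COX6A1, COX6B1, COX7A2L and COX7B were not called in either line either. COX6B1 passed in SCaBER with the replicate block (log2 0.33, adjusted p = 0.044). Its isoform COX6B2, best known from testis, was counted in SCaBER at 4.49 and 5.12 CPM in controls and at 9.62 and 14.3 under siFOXA1 (log2 1.29, adjusted p = 0.103).

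In the ATP synthase 1 of 20 tested members rose and 3 fell in RT112, and 1 rose and 2 fell in SCaBER. ATP5MC1, ATP5MC2 and ATP5MC3 encode the same mature rotor subunit c from separate genes. ATP5MC1 fell in RT112 from 377.8 and 394.9 to 275 and 230.2 CPM (log2 -0.63, edgeR adjusted p = 0.00419) and in SCaBER from 287.7 and 308.2 to 220.9 and 203.9 (log2 -0.51, adjusted p = 0.00534). ATP5MC3 fell in RT112 from 739.3 and 891.4 to 538.9 and 481.3 CPM (log2 -0.69 ± 0.14, adjusted p = 7.77e-04) and had -0.19 in SCaBER (adjusted p = 0.276). ATP5MC2 was not called, at 0.29 and -0.06. Thus the libraries of the ATP5MC1 groups stood apart in both lines and those of ATP5MC3 in RT112, and ATP5MC3's SCaBER values overlapped by a narrow margin, with 463.2 and 519.1 CPM in controls against 402.8 and 467.1.

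ATP5F1B, the catalytic beta subunit, fell in SCaBER from 447.1 and 482.3 to 309.1 and 337.9 CPM (log2 -0.54, edgeR adjusted p = 6.03e-04) and in RT112 by 0.40 log2 units (adjusted p = 0.0225). ATP5PB, of the peripheral stalk, rose in RT112 from 175.4 and 159.2 to 260.3 and 294.2 CPM (log2 0.71, adjusted p = 0.00119), with 0.13 in SCaBER (adjusted p = 0.647). ATP5IF1, the inhibitor of ATP hydrolysis, had -0.21 and -0.36 and passed in SCaBER only in other fits, among them the replicate block (adjusted p = 0.0279).

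Mitoribosomal proteins were 17 of the 34 members called in RT112 and 16 of the 32 called in SCaBER. In RT112 6 of 47 tested large-subunit proteins rose and 4 fell, and 4 of 28 small-subunit proteins rose and 3 fell. In SCaBER the counts were 4 and 4, and 6 and 2. MRPL33, a small protein of the large subunit (chr2:27771719-27779733), rose in RT112 from 107.4 and 104.9 to 200.8 and 278.5 CPM (log2 1.16 ± 0.17, edgeR adjusted p = 1.13e-05) and in SCaBER from 52.4 and 72.5 to 92.7 and 104.1 (log2 0.64, adjusted p = 0.0314). MRPS10 (chr6:42206807-42217861) rose in RT112 from 133.4 and 107.9 to 190.9 and 228 CPM (log2 0.78 ± 0.17, adjusted p = 0.00134) and in SCaBER from 114.1 and 127.2 to 204.9 and 205.9 (log2 0.75 ± 0.15, adjusted p = 4.41e-04). For both genes every siFOXA1 library lay above every control library of its line.

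MRPL48 rose in both lines (log2 0.86 and 0.50, edgeR adjusted p = 0.00111 and 0.0244). MRPL44, which carries an RNase III-like fold, rose in RT112 from 16.2 and 8.47 to 26.1 and 43.5 CPM (log2 1.49 ± 0.36, adjusted p = 0.00337). That call was lost without RT112 siControl replicate 2 or without RT112 siFOXA1 replicate 2, where the adjusted p reached 0.105. In SCaBER MRPL9 (log2 0.63, adjusted p = 0.00485) and MRPL52 (log2 0.60, adjusted p = 0.00709) rose. MRPS18A and MRPS18C are paralogs. MRPS18C rose in both lines (log2 0.68 and 0.49, adjusted p = 0.0361 and 0.0468) and MRPS18A in SCaBER (log2 0.73, adjusted p = 0.0257), all close to the threshold.

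MRPS26, of the small subunit (chr20:3046052-3048250), fell in RT112 from 113.1 and 130.9 to 56 and 47.2 CPM (log2 -1.25 ± 0.19, edgeR adjusted p = 2.73e-05) and in SCaBER from 78.95 and 87.24 to 49.9 and 35.8 (log2 -0.97 ± 0.19, adjusted p = 2.78e-04). MRPL11, at the base of the ribosomal stalk, fell in SCaBER from 156 and 168.8 to 108.7 and 104.8 CPM (log2 -0.62, adjusted p = 0.00197) and in RT112 by 0.91 log2 units (adjusted p = 0.00763). Groups stood apart in each line for both genes. MRPS6 fell in RT112 from 131.7 and 131.1 to 74.6 and 65.3 CPM (log2 -0.92 ± 0.19, adjusted p = 7.21e-04), with -0.50 in SCaBER (adjusted p = 0.134). MRPL16 (log2 -0.59, adjusted p = 0.00737) and the stalk protein MRPL12 (log2 -0.98, adjusted p = 0.00775) fell in SCaBER. MRPL12 had -0.17 in RT112, where its siFOXA1 libraries lay on either side of the controls, at 45.46 and 22.85 CPM against 36.7 and 39.6.

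**Figure D2:**
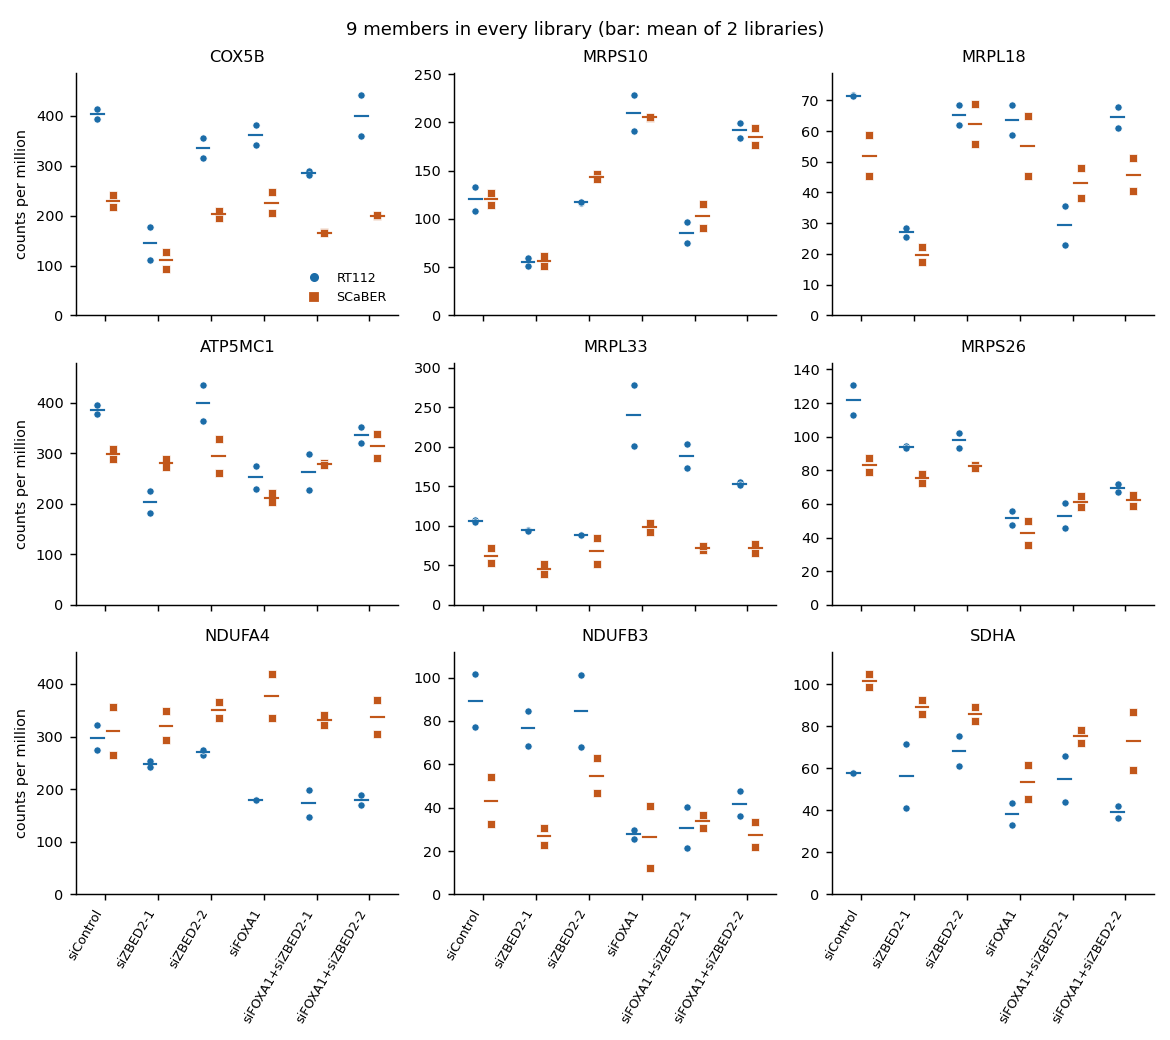
TMM-scaled CPM of 9 members (COX5B, MRPS10, MRPL18, ATP5MC1, MRPL33, MRPS26, NDUFA4, NDUFB3 and SDHA) in each of the 24 libraries, a point per library, by treatment and line. MRPL33 lies higher in the libraries with siFOXA1 alone than in controls in both lines, NDUFA4 lies lower in RT112 only, and COX5B, MRPS10 and MRPL18 lie lower under siZBED2-1 than in controls in both lines.

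The lines shared part of these changes. Of the 34 members called in RT112 and the 32 called in SCaBER, 13 were called in both, which is 38.2% of the former and 40.6% of the latter, and all 13 moved the same way. Over all genes the shares were 42.2 and 55.3%. Of the 1236 genes called in both lines 564 rose in both, 646 fell in both and 26 moved opposite ways, so a shared direction was general. Among the members that rose in both were MRPL33, MRPL48, MRPS10, MRPS18C, MRPL9, MRPS33 and UQCR10, and ATP5F1B, ATP5MC1, MRPL11, MRPS26 and NDUFAF3 fell in both. Across the 163 members the log2 fold changes of the lines had a Pearson correlation of 0.461 and a Spearman correlation of 0.486, and across all genes a Pearson correlation of 0.391. Genes are not independent replicates, and the lines share the siRNA and the protocol.

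**Figure D3:**
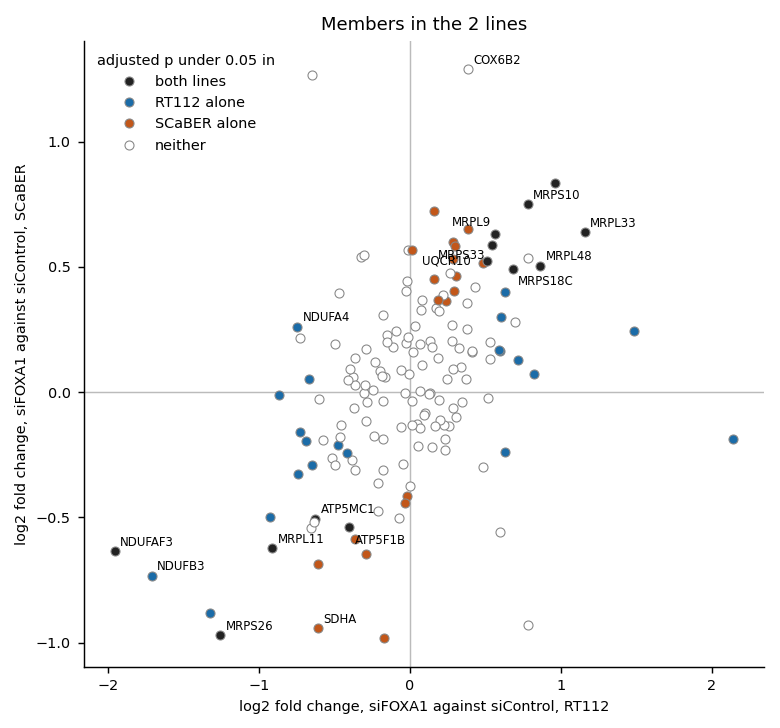
Log2 fold change under siFOXA1 against siControl in RT112 (horizontal axis) and SCaBER (vertical axis), a point per tested member, with those called in both lines marked. All 13 of these lie in the quadrants of equal sign, and NDUFA4 lies below 0 in RT112 and above 0 in SCaBER.

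The FOXA1 siRNA was also compared within cells that received a ZBED2 siRNA, setting both double knock-downs against both ZBED2 siRNAs alone. This comparison of 4 libraries with 4 was added after the data had been seen and uses no library of the siFOXA1 and siControl groups. In SCaBER the side without FOXA1 siRNA includes siZBED2-1 replicate 2, which was low in FOXA1, and without that library 10 members were called in place of 17. In RT112 32 members rose and 5 fell (all genes 9.88 and 10.2%), and in SCaBER 15 rose and 2 fell (5.24 and 4.90%). Among genes of at least 20 CPM 21.5% of members rose and 3.47% fell in RT112, against 15.8 and 14.9% of all such genes, and in SCaBER 9.59 and 0.685% against 9.09 and 7.50%. With library size alone the counts were 12 and 8, and 13 and 2, and on the TPM scale 2 and 9, and 5 and 1. The RT112 side without siFOXA1 includes the siZBED2-1 libraries, where members took a mean 2.17% of counts, against 2.61% in siControl. With siFOXA1 added that share was 2.38%, while with siZBED2-2 it went from 2.6 to 2.49%. What part the low siZBED2-1 share had in the RT112 split was not tested. All 17 members that rose under siFOXA1 in RT112 lay above 0 here and 13 of them rose. Of the 17 that fell 15 lay below 0 and 5 fell. In SCaBER all 20 that had risen lay above 0, with 9 called, and 11 of the 12 that had fallen lay below 0, with 1 called. Over all genes between 93.7 and 96.1% kept their direction, by line and direction, and between 36.8 and 58.4% were called again. ATP5MC1 was the exception in both lines and NDUFB1 in RT112.

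In those libraries MRPL33 (log2 0.89, edgeR adjusted p = 4.29e-06) and MRPS5 (0.59, adjusted p = 1.54e-04) rose in RT112. NDUFB3 (-1.17, adjusted p = 6.06e-05), NDUFA4 (-0.56, adjusted p = 4.35e-04) and MRPS26 (-0.66, adjusted p = 8.14e-04) fell there. MRPS10 rose in both lines, by 0.66 (adjusted p = 3.19e-04) and 0.61 (adjusted p = 1.89e-04), and MRPL9 and MRPL52 rose in SCaBER, by 0.57 each (adjusted p = 9.05e-04 and 7.09e-04). SDHA in SCaBER had a log2 of -0.24 (adjusted p = 0.29) and MRPS26 in SCaBER -0.35 (adjusted p = 0.0912). MRPL46, named after its values were seen, had the highest RT112 value of any member, 2.64 ± 0.50 (adjusted p = 3.58e-04). It was at 1.59 and 2.88, and 1.35 and 1.22 CPM under the ZBED2 siRNAs and at 10.6 and 4.67, and 12.4 and 17.5 CPM with siFOXA1 added, while its SCaBER libraries did not separate (log2 -0.02, adjusted p = 0.99).

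Pooling the 3 ZBED2 backgrounds, 6 libraries against 6, gave 43 members higher and 19 lower in RT112 (all genes 16.7 and 17.0%) and 31 higher and 9 lower in SCaBER (12.1 and 12.0%). Among genes of at least 20 CPM 28.5% of members rose and 13.2% fell in RT112, against 25.2 and 22.3% of all such genes, and in SCaBER 20.5 and 5.48% against 19.5 and 16.7%. The RT112 split turned with the scaling, to 27 higher and 32 lower with library size alone and 6 and 46 on the TPM scale. In SCaBER it was 26 and 13, and 16 and 15. All 9 complex III members lay above 0 in RT112 and 5 of them rose, which were UQCR10, UQCRB, UQCRQ, UQCR11 and UQCRC2. COX6B2 rose in SCaBER on this pooled comparison (log2 1.55, edgeR adjusted p = 3.95e-04). NDUFV1, the flavoprotein that takes electrons from NADH, fell in SCaBER (log2 -0.38, adjusted p = 0.00116).

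The second question was whether depletion of ZBED2 changed these genes. The 2 siRNAs against it gave different counts of called members. Under siZBED2-1 in RT112 no member rose and 17 fell (all genes 4.35 and 4.45%; genes of at least 20 CPM 7.17 and 7.78%, against 0 and 11.8% of members). Of the 163 tested members 129 lay below 0, with a median log2 fold change of -0.20, where the median of all genes was 0.00. The members' median was -0.22 with library size alone, and on the TPM scale 4 members were called at a median of -0.27. These scalings can move the median of all genes too, as they did under siFOXA1, so these 2 medians are not values relative to all genes. The members took 2.24 and 2.1% of counts in the siZBED2-1 libraries and 2.44 and 2.78% in controls, while the mitochondrial genome took 16 and 16.9% against 17.8 and 12.2%. Without RT112 siControl replicate 2, the library with the highest share of members, 5 members were called. In SCaBER 1 member rose and 6 fell (all genes 2.19 and 2.45%; genes of at least 20 CPM 3.97 and 4.18%, against 0.685 and 4.11% of members), with 95 below 0 and a median of -0.08. Without SCaBER siZBED2-1 replicate 2, the library low in FOXA1, 3 were called, which were COX5B, MRPS10 and MRPL18.

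**Figure D4:**
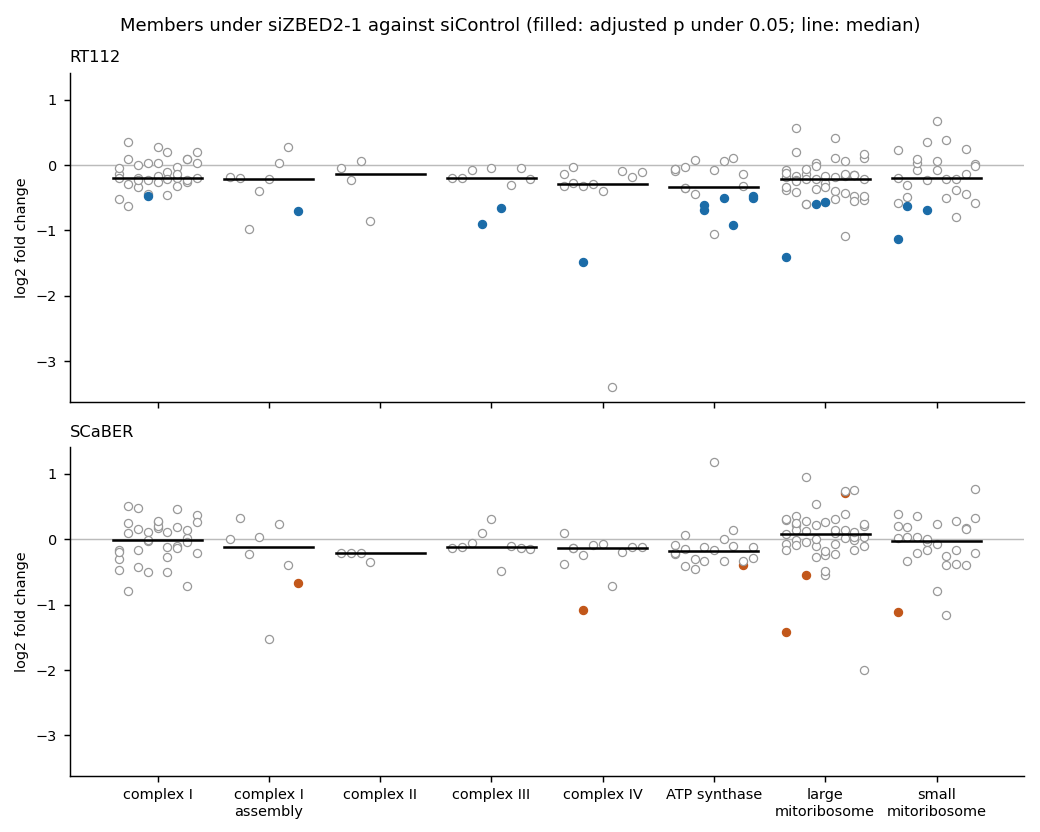
Log2 fold change of the 163 tested members under siZBED2-1 against siControl in RT112 and SCaBER, by complex and ribosomal subunit, with filled points for an adjusted p under 0.05 and a line for each median. In RT112 17 filled points all lie below 0, and COX5B, MRPS10 and MRPL18 lie below -1 in both lines.

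COX5B, MRPS10 and MRPL18 fell in both lines under siZBED2-1, to between 0.357 and 0.474 times the control level. COX5B encodes a zinc-binding subunit of complex IV (chr2:97646062-97648383), and MRPS10 and MRPL18 (chr6:159789812-159798429) a protein of each mitoribosomal subunit. The bases before their transcription starts are shown because, under siZBED2-1, these 3 genes had the lowest p among falling members in each line. They are from RefSeq on GRCh38.p14, 250 bases upstream of the start and read 5′ to 3′ in the direction of the gene, at chr2:97645812-97646061 on the plus strand for COX5B, chr6:42217862-42218111 on the minus strand for MRPS10 and chr6:159789562-159789811 on the plus strand for MRPL18. Capitals mark matches to the NRF1 motif GCATGCGC and the ETS motif CCGGAAGT, the last of them in COX5B cut by the start.
COX5B: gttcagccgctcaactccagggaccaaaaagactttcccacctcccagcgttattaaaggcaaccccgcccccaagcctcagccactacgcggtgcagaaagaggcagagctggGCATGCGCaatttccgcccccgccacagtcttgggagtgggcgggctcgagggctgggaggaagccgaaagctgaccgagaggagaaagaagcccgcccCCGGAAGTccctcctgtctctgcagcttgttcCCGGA
MRPS10: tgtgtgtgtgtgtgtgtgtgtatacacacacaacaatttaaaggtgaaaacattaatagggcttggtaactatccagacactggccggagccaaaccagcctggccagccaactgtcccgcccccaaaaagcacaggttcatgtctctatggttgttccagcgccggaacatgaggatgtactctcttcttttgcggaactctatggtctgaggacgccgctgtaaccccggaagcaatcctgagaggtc
MRPL18: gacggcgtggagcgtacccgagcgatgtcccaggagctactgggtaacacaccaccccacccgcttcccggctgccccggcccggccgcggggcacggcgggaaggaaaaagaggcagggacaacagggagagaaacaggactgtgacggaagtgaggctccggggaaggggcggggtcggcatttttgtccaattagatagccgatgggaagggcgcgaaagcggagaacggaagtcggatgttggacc

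The COX5B window held matches to both motifs. The MRPS10 window had a match to the YY1 motif AAGATGGCG just after the start, outside the printed run, and the MRPL18 window had none of the 3. The start of TCP1 lies on the opposite strand 210 bases upstream of MRPL18.

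COX5B was at 394.4 and 414.2 CPM in the RT112 control libraries, 177.7 and 111.3 under siZBED2-1 and 355.9 and 316.2 under siZBED2-2. In SCaBER it was at 216.8 and 241 CPM in controls, 92.8 and 127.8 under siZBED2-1 and 195.9 and 208.9 under siZBED2-2. Both siZBED2-1 libraries thus lay far below all others of their line without siFOXA1, with a log2 fold change of -1.49 ± 0.17 (edgeR adjusted p = 1.34e-06) in RT112 and -1.08 ± 0.15 (adjusted p = 6.8e-06) in SCaBER. The siZBED2-2 values of -0.27 and -0.17 were not called.

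MRPS10 was at 59.25 and 51.65 CPM under siZBED2-1 in RT112 (controls 133.4 and 107.9, siZBED2-2 116.6 and 117.9), a log2 fold change of -1.12 ± 0.18 (edgeR adjusted p = 1.17e-04). In SCaBER it was at 62.05 and 51.15 CPM (controls 114.1 and 127.2, siZBED2-2 146.6 and 141.1), again -1.12 ± 0.16 (adjusted p = 1.22e-05). MRPL18 was at 25.6 and 28.6 CPM under siZBED2-1 in RT112 against 71.6 and 71.2 in controls and 62 and 68.4 under siZBED2-2 (log2 -1.40 ± 0.23, adjusted p = 2.31e-04). Its SCaBER values were 17.3 and 22.3 CPM against 58.8 and 45.3, and 68.8 and 55.8 (log2 -1.41 ± 0.24, adjusted p = 2.23e-04). For both genes the siZBED2-1 libraries stood apart from the control and siZBED2-2 libraries of their line and lay below all of them. All 6 calls held under every alternative tried.

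In RT112 6 of 20 ATP synthase members fell under siZBED2-1, ATP5MC1, ATP5F1D, ATP5MG, ATP5IF1, ATP5PF and ATP5MC3, and 17 of 20 lay below 0. ATP5MC1 fell from 377.8 and 394.9 to 226.1 and 182.2 CPM (log2 -0.92, edgeR adjusted p = 2.75e-04), while in SCaBER it was at 273.5 and 287.9 CPM against 287.7 and 308.2. ATP5MG has a near copy, ATP5MGL, and its value is uncertain for that reason. All 12 complex IV members and all 9 complex III members lay below 0 in RT112, of which COX5B, UQCRC1 and UQCRFS1 fell. NDUFAF8, which works with another complex I assembly factor, fell in both lines (log2 -0.70 and -0.67). With siZBED2-2 it had -0.57 in SCaBER (edgeR adjusted p = 0.0975) and 0.17 in RT112, without a call. The other members that fell under siZBED2-1 were NDUFS6, MRPL20, MRPL51, MRPS21 and MRPS23 in RT112 and MRPL11 and ATP5MC2 in SCaBER, with log2 values between -0.68 and -0.40. MRPL15 was the 1 that rose in SCaBER, from 72.8 and 66.8 to 105.4 and 127 CPM (log2 0.71, adjusted p = 0.0104). It had -0.16 in RT112.

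Under siZBED2-2 edgeR called no member in either line (all genes in either direction 0.166% in RT112 and 0.625% in SCaBER), with 4 members at an unadjusted p under 0.05 in each line. The RT112 siZBED2-2 libraries were the least alike of any group. Their chi-square per gene, a measure of spread within a group, was 22.1, against 10.9 in the next, RT112 siControl. The mitochondrial genome took 16.4 and 8.22% of their counts, and the absence of RT112 calls rests on this pair. DESeq2 called 0 in RT112 and 1 in SCaBER, and the replicate block 1 in SCaBER. The siRNAs were then compared with each other, the 4 libraries with siZBED2-1 against the 4 with siZBED2-2, a comparison added after the data had been seen. In RT112 0 members were higher with siZBED2-1 and 16 lower (all genes 5.04 and 5.56%; genes of at least 20 CPM 7.97 and 9.51%, against 0 and 11.1% of members). In SCaBER 3 were higher and 6 lower (2.35 and 3.44%; at 20 CPM 4.07 and 5.98%, against 2.05 and 4.11% of members), or 7 and 8 with the replicate block. MRPS10 differed by -1.11 and -1.12 (edgeR adjusted p = 8.11e-07 and 1.23e-08), MRPL18 by -1.20 and -0.89 (adjusted p = 1.81e-05 and 5.51e-04) and COX5B by -0.84 and -0.59 (adjusted p = 1.91e-05 and 2.1e-04). MRPL15 differed by 0.57 in SCaBER (adjusted p = 0.00238). ZBED2 itself was lower with siZBED2-1 than with siZBED2-2 in all libraries that held no siFOXA1. In RT112 with siFOXA1 its values overlapped, at 1.91 and 1.42 CPM with siZBED2-1 against 2.65 and 0.852 with siZBED2-2. In SCaBER with siFOXA1 they were 3.7 and 1.69 against 9.76 and 11.8 CPM. The part of the ZBED2 level in these differences was not tested.

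MRPS10 also fell when siZBED2-1 was added to siFOXA1, a comparison that shares no library with siZBED2-1 against siControl, though its double knock-down libraries are among those of the comparison of the siRNAs with each other. In RT112 MRPS10 went from 190.9 and 228 CPM under siFOXA1 to 96.3 and 75 (log2 -1.28 ± 0.17, edgeR adjusted p = 1.35e-04), and in SCaBER from 204.9 and 205.9 to 115 and 90.4 (0.5 times the siFOXA1 level, adjusted p = 8.94e-05). MRPL18 fell in RT112 from 58.8 and 68.5 to 35.7 and 22.9 CPM (log2 -1.11, adjusted p = 0.00842), and in SCaBER its log2 of -0.35 was not called (adjusted p = 0.544). COX5B was at 289.7 and 281.3 CPM in the RT112 double knock-down against 380.9 and 341, and at 167.1 and 165.1 in SCaBER against 247.1 and 205.2. Its libraries stood apart in each line, but the log2 values of -0.33 and -0.45 missed the threshold (adjusted p = 0.365 and 0.103).

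ZBED2 in RT112 went from 5.46 and 1.52 CPM under siFOXA1 to 1.91 and 1.42 with siZBED2-1 added and to 2.65 and 0.852 with siZBED2-2, so that replicate 2 had little ZBED2 left to lose. In SCaBER it went from 20.5 and 19 CPM to 3.7 and 1.69 and to 9.76 and 11.8. Few other members were called in these comparisons. In RT112 1 rose and 2 fell with siZBED2-1 (all genes 1.55 and 0.995%) and 2 rose and 1 fell with siZBED2-2 (0.897 and 0.354%). In SCaBER 1 rose and 1 fell with siZBED2-1 (1.35 and 1.39%) and 2 rose and none fell with siZBED2-2 (2.25 and 1.41%). With the replicate block the siZBED2-1 counts were 5 in RT112 and 4 in SCaBER. NDUFB10 rose in RT112 with both siRNAs, from 69.5 and 53.5 CPM under siFOXA1 to 107.1 and 100.6 (log2 0.76, edgeR adjusted p = 0.0156) and to 96.9 and 104.1 (log2 0.71, adjusted p = 0.0446), near its control level of 96.3 and 105.5. MRPL17 rose (log2 1.27, adjusted p = 0.0379) and MRPL33 fell (log2 -0.64, adjusted p = 0.049) in RT112 with siZBED2-2. In SCaBER ATP5F1B rose with siZBED2-1 (log2 0.47, adjusted p = 0.0151), and ATP5MC1 (log2 0.58, adjusted p = 0.00651) and MRPL16 (log2 0.57, adjusted p = 0.0346) rose with siZBED2-2. These comparisons share the siFOXA1 libraries with siFOXA1 against siControl, in which the members that rose here had fallen.

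The lines were also compared with each other. Under siControl 16 members were higher in SCaBER than in RT112 and 41 lower (all genes 17.2 and 16.4%; genes of at least 20 CPM 23.4 and 21.6%, against 11.0 and 27.6% of 145 members), with a median log2 difference of -0.16. On the TPM scale the split was 25 higher and 13 lower, where the median of all genes was 0.18 and the members lay 0.09 below it. Without RT112 siControl replicate 2 the count fell to 31. In the ATP synthase 0 members were higher in SCaBER and 9 lower of 20 tested, in complex IV 0 and 7 of 12, in complex III 0 and 3 of 9 and in complex I 4 and 12 of 35. In complex II and among the complex I assembly factors 1 member each was higher and 0 lower, SDHA being that of complex II (log2 0.81). The large mitoribosome was split, with 8 higher and 6 lower of 47. On the TPM scale the ATP synthase and complex IV had 1 higher and 4 lower each and the large mitoribosome 12 higher and 1 lower.

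ATP5PF, a peripheral stalk subunit (chr21:25724500-25735653), was at 476.7 and 523.4 CPM in RT112 and 102.5 and 102.4 in SCaBER (log2 -2.29 ± 0.15, edgeR adjusted p = 5.33e-14). ATP5ME, subunit e of the membrane part (chr4:672436-674276), was at 525.4 and 576.9 against 125.4 and 146.1 (log2 -2.02 ± 0.14, adjusted p = 6.05e-14), and ATP5PO, the stalk subunit that meets the catalytic head, at 307.7 and 343.9 against 101.6 and 109.5 (log2 -1.63 ± 0.13, adjusted p = 8.62e-12). The lines stood apart by a wide margin for all 3. Higher in SCaBER were MRPL11 (62.2 and 75.1 against 156 and 168.8 CPM, log2 1.24, adjusted p = 2.11e-06), MRPL1 (27.3 and 32 against 78.8 and 74.6, log2 1.37, adjusted p = 4.74e-06) and MRPL16 (49.8 and 52.3 against 113.9 and 111.9, log2 1.14, adjusted p = 6.92e-06).

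These differences were uneven over the chromosomes. ATP5PF and ATP5PO lie on chromosome 21, as do MRPL39 (log2 -1.53), MRPS6 (-1.26) and NDUFV3 (-0.06). Of these 5 members 4 were lower in SCaBER, with a median of -1.53, and over all 134 tested genes of that chromosome the median was -1.59 and 64.9% were lower. On chromosome 11 6 of 14 members were higher and 2 lower in SCaBER, among them MRPL11 and MRPL16 above 0, and 33.1% of all its tested genes were higher, with a median of 0.36. ATP5ME lies on chromosome 4, where the median of all genes was 0.24.

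**Figure D5:**
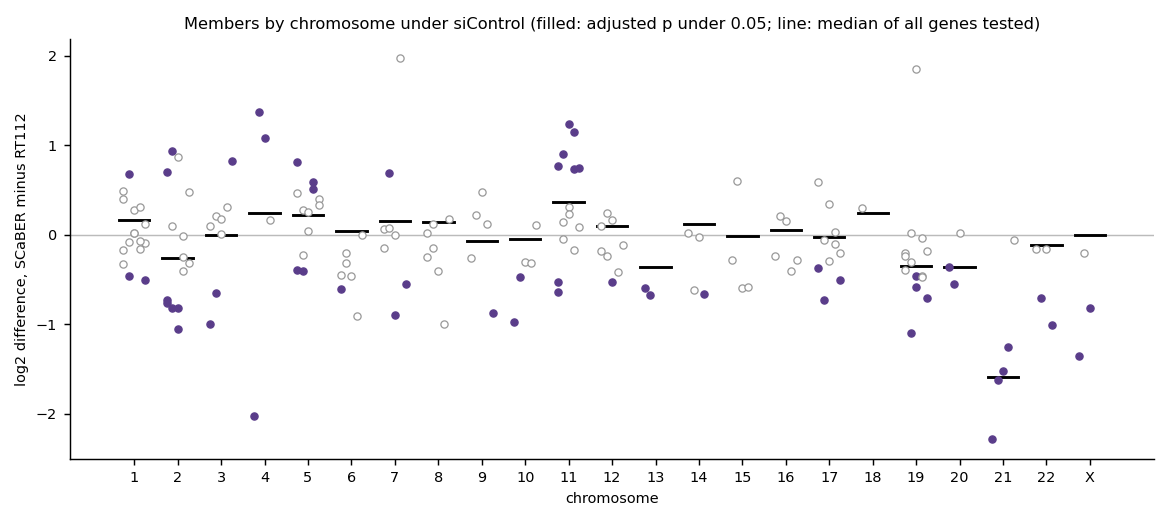
Log2 difference between SCaBER and RT112 under siControl by chromosome, a point per tested member and a bar for the median over all tested genes of the chromosome. Chromosome 21 has the lowest median, -1.59, and 4 of its 5 members lie below -1.

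Other mitochondrial genes, from lists chosen for their function, were read beside the members. Under siFOXA1 9 of 15 transcripts of the mitochondrial genome rose in RT112 and none fell (median log2 0.65), and 6 rose and none fell in SCaBER (median 0.32), or 6 and 1 with library size alone. These transcripts took 17.8 and 12.2% of counts in RT112 controls and 21.4 and 22.7% under siFOXA1, and 9.73 and 10.7% and then 12.9 and 12.5% in SCaBER. MT-ND1, a complex I subunit of the mitochondrial genome, had a log2 of 1.41 (edgeR adjusted p = 6.47e-05) in RT112 and 0.74 (adjusted p = 1.66e-05) in SCaBER. The nuclear members of complex I had medians of 0.03 and 0.09. With these transcripts left out of the library totals 34 members were called in RT112 and 33 in SCaBER, against 34 and 32 with them.

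Outside the members, cytochrome c (CYCS), which carries electrons from complex III to IV, fell in both lines under siFOXA1 (log2 -1.12 and -0.94, edgeR adjusted p = 1.95e-05 and 1.29e-05). Of citric acid cycle enzymes 2 of 14 rose and 3 fell in RT112 and 3 fell in SCaBER, with FH (-2.63 and -0.99, adjusted p = 1.13e-05 and 0.00128) and IDH2 (-1.03 and -1.36, adjusted p = 4.13e-04 and 0.00174) falling in both. Of 39 assembly factors outside the naming rule 2 rose and 5 fell in RT112, and 4 rose and 3 fell in SCaBER. ACAD9, needed for complex I assembly, fell in both (-1.63 and -0.94, adjusted p = 1.62e-04 and 0.00654), and COX14, needed for complex IV assembly, rose in both (1.06 and 0.75, adjusted p = 3.99e-04 and 0.0143). Of 22 import and chaperone genes 1 rose and 5 fell in RT112 and 4 fell in SCaBER, including the matrix chaperonins HSPD1 (-0.85 and -0.70, adjusted p = 7.28e-05 and 7.87e-06) and HSPE1 (-0.88 and -0.79, adjusted p = 2.06e-04 and 4.87e-04).

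Among 15 regulators of mitochondrial biogenesis 1 rose and 1 fell in RT112, the latter being NRF1 (log2 -2.05, edgeR adjusted p = 0.0267), and 2 fell in SCaBER, of which MYC had -1.25 (adjusted p = 0.00602). Of 18 translation factors and RNA-binding proteins of mitochondria 3 rose in RT112 and 1 fell in SCaBER, and of 5 subunits and carriers whose names the rule misses 1 rose and 1 fell in each line. Cytosolic ribosomal proteins, listed for comparison, had 0 of 38 higher and 16 lower in RT112 (median -0.33) and 2 higher and 8 lower in SCaBER (median -0.07). The cell type lists moved beside these results. Of luminal markers 1 of 10 tested rose and 6 fell in RT112 and 1 of 9 fell in SCaBER, and of basal and squamous markers 1 of 7 rose and 1 fell in RT112 and 3 of 9 rose and 1 fell in SCaBER. The summed markers of immune, endothelial and stromal cells were at 10.7 and 8.65 CPM in the RT112 controls and 44.5 and 48.5 under siFOXA1, mostly COL1A1, and their part in the members' values was not tested. Under siZBED2-1 in RT112 7 of 22 import and chaperone genes fell and none rose (median -0.47), among them TOMM7 (-0.80, adjusted p = 2.18e-04) and HSPE1 (-0.93, adjusted p = 3.36e-04).

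Promoter sequence, which the naming rule did not use, was searched for known motifs, and most members held none of them. Promoter windows of 300 bases, 250 before and 50 after the start, were found in RefSeq for 147 of 174 members and searched on both strands. The NRF1 motif GCATGCGC, the ETS motif CCGGAAGT and the YY1 motif AAGATGGCG were each in 21 of the 147 windows (14.3%), against 3.05, 4.14 and 1.75% of 35116 promoters and 4.69, 7.25 and 3.36% of the 14879 promoters of genes tested here. Of the members 34.7% held at least 1 of the 3, against 14.2% of promoters of tested genes. The forkhead motif TGTTTAC, added after the data had been seen, was in 0 of 147 windows and in 2.68% of promoters of tested genes. In other bladder cancer lines the paper reports FOXA1 binding mainly away from promoters, and regions outside these windows were not searched. A start on the opposite strand lay within 1000 bases upstream for 38.8% of members and 23.7% of tested genes. Of the 13 members called in both lines under siFOXA1, MRPS10 (YY1) and MRPS18C (NRF1) held a motif, 9 held none and 2 had no window. A match is a run of letters and not a measured binding site.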

How the data were processed

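RNA (RNeasy) was made into 24 QuantSeq 3′ FWD libraries, which read the ends of transcripts. Per the labels, reads were checked with raw-qc 2.1.0, trimmed with TrimGalore 0.6.2, aligned to hg38 with STAR 2.6.1a and counted by STAR on GENCODE 29. The study's methods name hg19 instead. The authors deposited raw counts per gene, used for all main results, and TPM values, made by a tool not given in the sources used here and used only as an alternative on the log2(TPM + 1) scale. Molecular identifiers were not stated, so precision covers these libraries' spread only.

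Counts were filtered with filterByExpr (minimum count 10), scaled by TMM and tested with edgeR 4.0.16 (quasi-likelihood, Benjamini-Hochberg over all genes, threshold 0.05) in a fit of the 12 libraries of each line, and of all 24 for differences between the lines. This tested 13264 genes in RT112, 13129 in SCaBER and 14823 in both. CPM values were scaled over all 24 libraries. DESeq2 1.42.0 and limma 3.58.1 served as alternatives. Labels tie a replicate number to an experiment batch. Same-numbered libraries deviated together little (mean correlation 0.0401 in RT112 and 0.0328 in SCaBER, 15 pairs of groups each), though over the members the means were 0.0462 and 0.161, with 6 and 9 pairs above 0.1, and the block is an alternative. Whether replicates were separate cultures is not labelled, so p-values measure the spread between these libraries.

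Members, gene lists and tests were chosen with earlier results of these data known. Named were, per comparison and line, up to 6 higher and 6 lower called members by p for siFOXA1 and 3 and 3 otherwise, members fixed by role (complex II, rotor c subunits, complex IV isoforms, NDUFA4, ATP5IF1, UQCRFS1, MRPS18 paralogs, MRPL12) and listed genes outside the members. Members named to complete a count were chosen after their values were seen. Some results that this rule would name are not reported here. Scripts were tested on simulated data. Promoters are from RefSeq (GRCh38.p14).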

Additional observations from a re-analysis of the deposited data

Results flagged for a closer look

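The siFOXA1 change of NDUFA4 differed between the lines, by 1.01 log2 units (SCaBER minus RT112, edgeR adjusted p = 0.00653). It fell in RT112 and had a value above 0 without a call in SCaBER. In ZBED2-depleted cells, which share no library with that comparison, NDUFA4 fell in RT112 (log2 -0.56) and was not called in SCaBER (adjusted p = 0.992). The difference was chosen among 163 members, and its cause was not tested.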

How the results depend on the processing

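Among the genes named by the rule, none that was called changed direction under any alternative tried. Other called members were not followed singly. Splits of higher against lower members did turn with the scaling, as given with the siFOXA1, pooled and line comparisons. Over single genes and medians of the members, and alternatives other than leaving out a library, 1091 values kept their sign and their side of the threshold (medians, a shift within the spread), 43 lost a call, 9 gained one and 31 without a call changed sign or moved beyond the spread. Leaving out a library kept 657, lost 72, gained 2 and moved 29. Of the counts of called members, 27 moved by over 1.5 times and 127 did not, and with a library left out 32 and 76. MRPL48, ATP5PB and MRPS10 in RT112 and NDUFB9 and MRPL9 in SCaBER lost their siFOXA1 call on the TPM scale, and MRPS10 in RT112 also without RT112 siControl replicate 2. On the TPM scale the count of called members was 20 (from 32) for siFOXA1 in SCaBER, 4 (from 17) for siZBED2-1 in RT112, 11 (from 37) and 6 (from 17) for the FOXA1 siRNA in ZBED2-depleted RT112 and SCaBER cells, 10 (from 16) and 5 (from 9) for siZBED2-1 against siZBED2-2, 0 (from 3) for each double knock-down in RT112, 1 (from 2) for siFOXA1 with siZBED2-1 in SCaBER and 0 (from 1) for the difference between lines in the siFOXA1 change. Library size alone gave 20 for the FOXA1 siRNA in ZBED2-depleted RT112 cells. With the 4 libraries compared alone, the double knock-downs with siZBED2-1 and siZBED2-2 gave 1 and 0 in RT112, and that with siZBED2-2 gave 1 in SCaBER. DESeq2 gave 1 for siZBED2-2, 4 and 5 for the double knock-downs and 15 for siZBED2-1 against siZBED2-2 in SCaBER, and 5 for the difference between lines. That difference was called in 2 members without mitochondrial transcripts, without a filter, at a minimum count of 50 and with the replicate block.

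With the replicate block the count was 41 for siFOXA1 in RT112, 42 in SCaBER, 25 and 9 for siZBED2-1, 1 for siZBED2-2 in SCaBER, 5 and 4 for the double knock-downs with siZBED2-1 in RT112 and SCaBER and 15 for siZBED2-1 against siZBED2-2 in SCaBER. The block changed no other call of a named gene than those of SDHC, COX6B1 and ATP5IF1.

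Leaving out each library gave 18 to 35 called members for siFOXA1 in RT112 (lowest without siControl replicate 2 and without siFOXA1 replicate 2) and 18 to 24 in SCaBER (lowest without siControl replicate 2), 5 to 13 and 3 to 6 for siZBED2-1 (lowest without RT112 siControl replicate 2 and SCaBER siZBED2-1 replicate 2), 0 to 0 for siZBED2-2 in both lines, 47 to 64 and 30 to 37 over the 3 ZBED2 backgrounds, 21 to 33 and 6 to 18 in ZBED2-depleted cells (lowest without RT112 siZBED2-1 replicate 2 and SCaBER siZBED2-2 replicate 1), 11 to 15 and 4 to 8 for siZBED2-1 against siZBED2-2, 1 to 4 and 1 to 3 for the double knock-down with siZBED2-1, 0 to 4 and 0 to 4 with siZBED2-2, 31 to 50 between lines under siControl and 0 to 5 for the difference between lines in the siFOXA1 change. A lone library was then assumed to vary like the other groups. With 2 libraries per group, members of low count such as MRPL46 and MRPL44 were measured with the least precision.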
